A study of Mus musculus with 10 samples.

Results

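A list of 38 genes needed to make ribosomes was followed through 10 arrays of mouse CD4+ T cells. It was drawn up with earlier results of these data known and holds nucleolar proteins, subunits of RNA polymerase I, the protein cores of the small nucleolar ribonucleoproteins (snoRNPs), assembly factors of both ribosomal subunits, and enzymes of polyamine and pyrimidine synthesis. A probe set annotated to 1 gene was found for 37 of the 38 genes (Npm3 was not analysed here), and all 37 were among the 11938 genes kept, each of which reached its array's median level on at least 1 array. Where a gene had several probe sets, the one with the highest mean was used.

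Ribosomes are built in the nucleolus. RNA polymerase I transcribes a long precursor RNA, snoRNPs guide its chemical modification, and large protein assemblies cleave it and fold it into the small (40S) and large (60S) subunits. T cells that have been activated and are about to divide are known to raise this machinery, and many of its genes, with ornithine decarboxylase and Cad, are known targets of the transcription factor Myc.

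The first 7 arrays held sorted cells from pooled lymph node and spleen of female mice aged 6 to 8 weeks. The Foxp3(gfp/gfp) mice carry a knock-in that fuses GFP to Foxp3, the transcription factor of regulatory T cells, and were backcrossed to C57BL/6 for 8 to 10 generations from 129/Sv; they gave GFP- CD25- CD4+ cells (CD25neg), GFP- CD25+ CD4+ cells (CD25pos) and GFP+ CD4+ cells, which carry the fusion protein (GFPfoxp3). The heterozygous Foxp3(gfpko/wt) females, backcrossed for 5 generations, express GFP in place of Foxp3 from 1 X-linked allele and gave GFP+ CD4+ cells with no Foxp3 protein from the active locus (GFPko); cells using the wild-type allele also exist in these mice. For CD25pos, GFPko and GFPfoxp3 there was also an array from IL-2-treated animals, which received 50 ng/g in 4 doses over 24 h and were used 30 min after the last dose. The other 3 arrays belong to a separate experiment with female C57BL/6 mice, labelled as 6 to 8 weeks old: their CD25+ CD4+ cells were stimulated in culture with antibodies to CD3 and CD28 and IL-2, transduced with the retroviral vector MigR1, either empty or carrying PDE3B (a phosphodiesterase that degrades cyclic AMP) or its H801A mutant, and placed in TCRalpha-deficient hosts together with Ly5.1+ CD25- CD4+ cells that had received the same vector. They were recovered after 3 weeks as GFP+ GITR+ CD4+ Ly5.1- cells, so GITR stood in for Foxp3 in that sort.

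Each group is 1 array. The 3 populations with and without IL-2 form a grid of 6 arrays, which allowed a limma fit with additive terms for population and IL-2. Its p-values were adjusted by Benjamini-Hochberg over all 11938 genes and called under 0.05. They rest on how alike the IL-2 change was over all 3 populations, also where only 2 are compared. That spread is drawn toward the spread over all genes. It is not the spread between animals, which these arrays do not measure. All other comparisons set 1 array against 1 array, have no test, and are counted at 2-fold (1 on the log2 scale). Values below are the deposited log2 levels unless called differences. In such bulk samples, fewer expressing cells and less RNA per cell cannot be told apart, and the GFPko line also differs from the others in its backcross.

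Foxp3 was at 2.45 to 3.90 on the CD25neg and CD25pos arrays, 8.33 and 9.40 in GFPko, 10.86 on both GFPfoxp3 arrays and 11.26 to 11.52 in transduced cells. Whether its probe set lies in the part that the gfpko allele disrupts was not examined, so its level in GFPko is no check of that label. Il2ra, which encodes CD25, was at 3.45 in CD25neg and 7.90 to 11.56 elsewhere. The 4 measured T cell markers were well above the array medians (3.04 to 3.22) everywhere, and Cd8a lay between 3.13 and 3.30. Markers of other cells moved with the populations. Of 4 measured B cell markers, 3 (Cd79b, Cd74 and Ighm) were called higher in GFPfoxp3 than in CD25pos and than in GFPko; the log2 of the list's summed level was 12.25 and 12.13 in GFPfoxp3, 11.20 and 11.12 in CD25pos, 10.42 and 9.91 in GFPko, and 12.55 to 12.73 in transduced cells, while Ms4a1 stayed between 3.31 and 4.16 throughout. Of 5 measured CD8 and NK markers, 3 (Klrd1, Eomes and Klrk1) were called lower in both GFP+ populations than in CD25pos, where the list's summed level was 10.25 and 10.13 against 5.81 to 6.60 in the 4 GFP+ arrays. The part of these differences in the results below was not tested.

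Stretches of RefSeq promoter sequence (build GRCm38.p6) are shown first, for the 4 members with an E-box and for Polr1b and Odc1, on which the results turn. The table matched 30 of the 37 genes, with 34 promoters of 250 bases before and 50 after the start of transcription. Capitals mark the E-box CACGTG, the motif bound by Myc with its partner Max, or the STAT-type motif TTCNNNGAA; both strands were searched, each of these motifs and GTAAACA being searched separately with no allowance for overlap. The first 4 lines give the 120 bases just before the start of Polr1b (chr2:129100876-129100995, plus strand), Utp20 (chr10:88826815-88826934, minus strand), Nop2 (chr6:125131763-125131882, plus strand) and Odc1 (chr12:17544753-17544872, plus strand). The last 3 lines give the E-boxes near the start of Pes1 (chr11:3963965-3963994, plus strand), Utp20 (chr10:88826765-88826789, minus strand) and Wdr43 (chr17:71616220-71616249, plus strand).
Polr1b: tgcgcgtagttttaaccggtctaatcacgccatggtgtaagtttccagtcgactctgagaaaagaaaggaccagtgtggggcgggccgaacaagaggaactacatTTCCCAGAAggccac
Utp20: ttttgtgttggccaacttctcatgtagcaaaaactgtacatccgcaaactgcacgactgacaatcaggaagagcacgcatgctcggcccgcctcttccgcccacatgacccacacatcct
Nop2: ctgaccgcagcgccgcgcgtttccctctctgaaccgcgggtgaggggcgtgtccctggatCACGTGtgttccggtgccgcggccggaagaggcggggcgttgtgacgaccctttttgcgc
Odc1: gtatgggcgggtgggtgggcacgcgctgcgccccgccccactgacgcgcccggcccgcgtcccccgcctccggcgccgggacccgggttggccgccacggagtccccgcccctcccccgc
Pes1: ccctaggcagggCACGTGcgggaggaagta
Utp20: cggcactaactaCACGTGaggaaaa
Wdr43: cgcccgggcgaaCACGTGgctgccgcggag

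CACGTG was present in 4 of the 34 promoters (11.8%), those of Nop2, Pes1, Wdr43 and Utp20, against 7.15% of all 32851 promoters and 9.87% of those of the genes kept. Counted from the first transcribed base as 1, the motif began at -60 in Nop2, 3 in Pes1, 18 in Wdr43 and 38 in Utp20. TTCNNNGAA was present in 2 promoters (5.88%), at -46 in Nop58 and -15 in Polr1b, against 8.30% of all promoters and 6.92% of those of the genes kept. GTAAACA, a forkhead motif of the kind Foxp3 family proteins bind, was present in 1 (2.94%), at -197 in Rrp1b, against 3.65% and 2.69%. These shares describe letters in a short window and not binding.

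The levels of the genes by array are shown first, because 1 population stood above the rest. Among the 4 untreated sorted populations, CD25pos had the highest level of 32 of the 37 genes (86.5%), against 24.6% of all genes kept. CD25neg had the highest level of the other 5: Npm1, Tcof1, Ddx21, Wdr75 and Nop14, though a second well-measured probe set of each of the first 3 was higher in CD25pos. Over all 7 sorted arrays, CD25pos without IL-2 was highest for 30 genes (81.1%, against 14.5% of all genes), and GFPfoxp3 with IL-2 was lowest for 19 (51.4%, against 18.5%). The 4 GFP+ arrays all lay below both CD25pos arrays for 24 of the 37 genes, against 12.7% of all genes, and all above for 0, against 8.9%. The untreated arrays also differed in the Actb 3′ to 5′ probe set difference, a sign of RNA integrity and amplification. It was 3.80 in CD25pos, 3.69 in GFPko, 3.29 in CD25neg and 3.07 in GFPfoxp3. That of Gapdh was 6.43, 5.94, 6.49 and 5.55 in the same order. Their part was not tested.

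**Figure D1:**
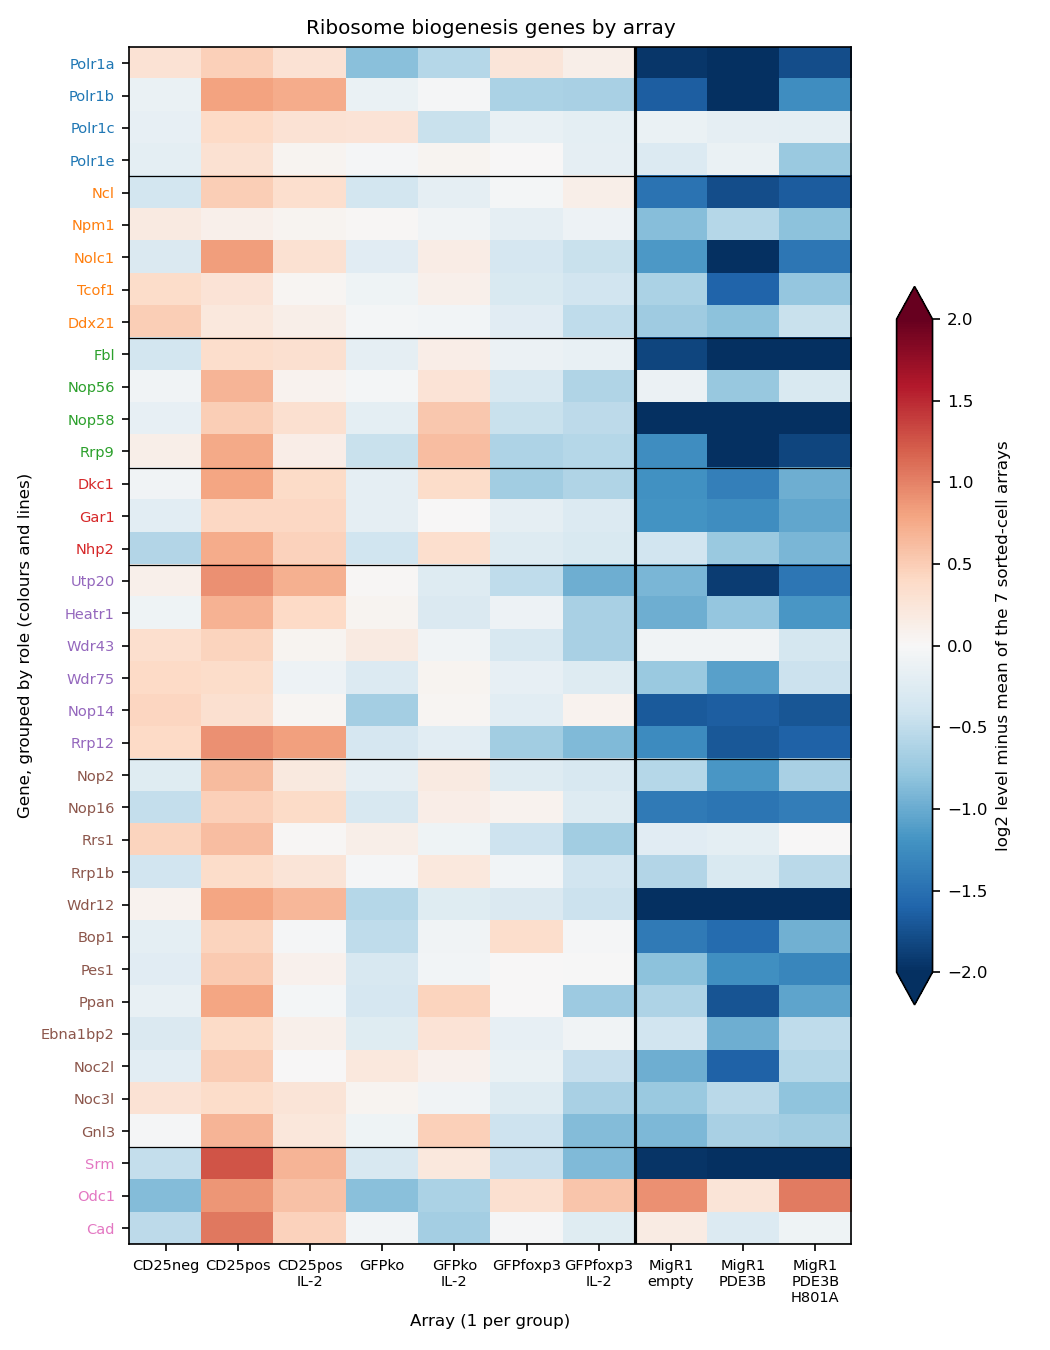
Level of each of the 37 genes (rows, grouped by role) on each of the 10 arrays (columns, 1 per group), as the log2 level minus the gene's mean over the 7 sorted-cell arrays; colours saturate beyond 2 in either direction. The CD25pos column is the reddest of the sorted arrays, with 30 of the 37 genes at their highest there, and the 3 transduced-cell columns on the right are mostly blue.

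Most members moved together across the 7 sorted arrays. Pearson's r between a gene and the mean of the other members had a median of 0.79 and exceeded 0.8 for 17 genes. The arrays share their normalization, and no p is given. This r was not computed for other genes, so it cannot be told whether the count is particular to the members. Srm (0.97), which makes spermidine, and Nolc1 (0.97), a nucleolar phosphoprotein that chaperones snoRNPs, followed the mean most closely. Odc1 (0.36), the rate-limiting enzyme of polyamine synthesis, and Polr1a (0.37), the largest subunit of RNA polymerase I, followed it least. Npm1, an abundant nucleolar chaperone, had the narrowest range, 14.04 to 14.40 (12.20 to 13.15 by its other, less bright probe set), and Srm the widest, 8.33 to 10.47.

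CD25pos cells against CD25neg cells ask how GFP- cells that carry the IL-2 receptor alpha chain differ from those that do not. Of the 37 genes, 32 were higher in CD25pos, with a median difference of 0.71 against 0.01 over all genes. Of these, 5 were at least 2-fold higher (13.5% of members, against 5.55% of all genes) and 0 were 2-fold lower (against 1.69%). Odc1 was at 9.69 in CD25neg and 11.44 in CD25pos, and Srm at 8.74 and 10.47, so both polyamine enzymes were more than 3-fold higher by the chosen probe sets. By its 2 other probe sets, Odc1 was higher by 0.80 and by 2.04. Cad, which carries out the first steps of pyrimidine synthesis, was at 7.28 and 8.86. Nhp2, a core protein of the box H/ACA snoRNPs that direct pseudouridine formation, was at 10.09 and 11.41, and Nolc1 at 8.91 and 10.04. Other probe sets that lay at least 2-fold above the array median on every array numbered 24, over 19 of the genes, and 19 of the 24 had the sign of the chosen one here. The 5 with the other sign belonged to Npm1, Tcof1 and Ddx21, where they were higher in CD25pos (by 0.62, 0.57 and 1.16), and to Nolc1 (-0.04) and Dkc1 (-0.10). Other genes moved between these 2 arrays too: 16 of 20 cell cycle genes were at least 2-fold higher in CD25pos (median 2.17), and the summed level of the 5 measured CD8 and NK markers was 9.20 in CD25neg and 10.25 in CD25pos, with Eomes at 6.13 and 9.41 and Klrk1 at 2.47 and 4.65. Of 5 measured myeloid markers, whose summed level was 5.06 and 5.48, Tyrobp was at 2.13 and 3.445. Their part was not tested.

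GFPfoxp3 minus CD25neg had a median of -0.05 over the 37 genes, with 16 higher and 21 lower. Odc1 was 2-fold higher, at 10.87 against 9.69 (7.31% of all genes were 2-fold higher), and Rrp12, a factor in the maturation and export of ribosomal subunits, was 2-fold lower, at 5.18 against 6.28 (3.63% of all genes). Of the 2 other Odc1 probe sets, the brighter was at 9.86 against 9.82 and the dimmer at 6.07 against 4.70. GFPko minus CD25neg had a median of -0.03, with 18 higher and 19 lower. Polr1a, at 6.04 against 7.17, and Nop14, a small subunit processome protein, at 6.09 against 7.19, were 2-fold lower there, against 2.8% of all genes, and 0 were 2-fold higher, against 3.93%. At 1.5-fold, GFPfoxp3 had 9 genes lower than CD25neg (10% of all genes), namely Tcof1, Ddx21, Rrp9, Dkc1, Utp20, Wdr43, Nop14, Rrp12 and Rrs1, and only Odc1 higher (14.1% of all genes). The other well-measured probe sets of Ddx21 and Wdr43 were not lower in GFPfoxp3. Those of Tcof1, Dkc1 and Rrs1 were lower, though not all by 1.5-fold. GFPko had 5 lower at 1.5-fold (8.9% of all genes), namely Polr1a, Wdr75, Nop14, Rrp12 and Wdr12, and 0 higher (7.46%). By its next brightest probe set, at least 2-fold above the array median on 8 of the 10 arrays, Polr1a was not lower in GFPko. The 3 comparisons share the 1 CD25neg array.

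**Figure D2:**
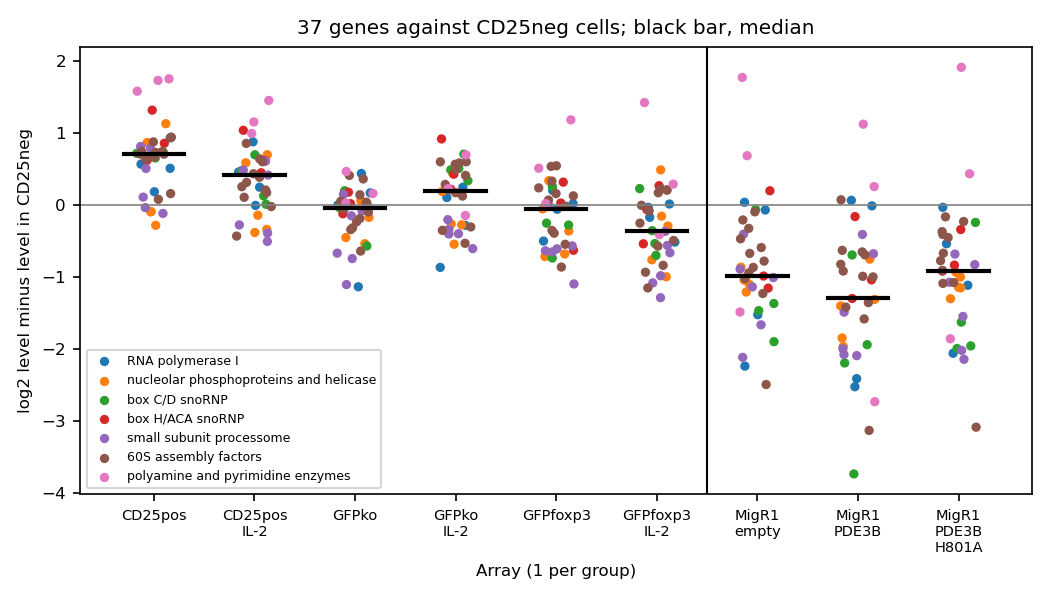
Log2 level of each gene on the other 9 arrays (x axis) minus its level in CD25neg cells (y axis), 1 point per gene coloured by role, with a black bar at the median. The medians were 0.71 in CD25pos, -0.05 in GFPfoxp3 and -0.03 in GFPko, and below -0.9 on the 3 transduced-cell arrays right of the vertical line.

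GFPfoxp3 against CD25pos compares regulatory T cells with CD25+ cells that lack Foxp3, at 2 matched settings. By limma, 9 of the 37 genes were called lower in GFPfoxp3 and 0 higher, where 3.45% of all genes were called lower and 5.28% higher. Of the 37 genes, 36 were lower both without and with IL-2 (97.3%, against 43.5% of all genes); the exception was Nop14, whose difference with IL-2 was 0.02. The median difference was -0.70, against -0.03 over all genes, and it was -0.64 without IL-2 and -0.66 with it. All 24 other well-measured probe sets of these genes were lower as well. The 9 calls became 16 after centring and 5 with no filter on dim genes, settings for which the share of all genes called is not given here.

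RNA polymerase I and the small subunit processome, the assembly that forms on the 5′ end of the precursor RNA, held 5 of the 9 calls. Rrp12 was at 6.79 and, with IL-2, 6.695 in CD25pos, and at 5.18 and 4.99 in GFPfoxp3. Those 2 pairs did not overlap, and the fitted difference was -1.65 (SE 0.124, adjusted p = 0.00903), or 3.15-fold. Utp20, a processome component, was at 9.82 and 9.62 in CD25pos and at 8.40 and 7.93 in GFPfoxp3, a difference of -1.56 (SE 0.115, adjusted p = 0.00893). Polr1b, the second largest subunit of RNA polymerase I, was at 6.81 and 6.76 against 5.38 and 5.37, a difference of -1.41 (SE 0.102, adjusted p = 0.00852), whereas the largest subunit Polr1a, at 7.36 and 7.17 against 7.11 and 7.001, differed by -0.20 and was not called. Heatr1 (-0.92) and Wdr43 (-0.73), both needed for precursor transcription and early cleavage, were also called lower (adjusted p = 0.0235 and 0.0283).

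Among the 12 assembly factors of the 60S subunit, 3 were called lower. Wdr12, which works in a complex with Pes1 and Bop1, was at 8.84 and 8.71 in CD25pos against 7.76 and 7.62 in GFPfoxp3, a difference of -1.09 (SE 0.161, adjusted p = 0.0331). Its partners differed less: Pes1 differed by -0.30 and Bop1, at 8.58 and 8.12 against 8.495 and 8.12, by -0.04, neither being called. Rrs1 (-0.87, adjusted p = 0.0373), which brings 5S RNA into the large subunit, and Noc3l (-0.77, adjusted p = 0.0377) were called. Gnl3, the nucleolar GTP-binding protein nucleostemin, differed by as much as Wdr12 (-1.09) without being called (adjusted p = 0.113). Its 2 pairs were alike (-1.095 and -1.091), but its SE, 0.2945, also takes in GFPko. There IL-2 changed Gnl3 by 0.55, against -0.45 in both CD25pos and GFPfoxp3.

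None of the 12 nucleolar phosphoproteins, helicase and snoRNP core proteins was called, although all were lower in both pairs. Their largest difference was that of dyskerin, Dkc1, the pseudouridine synthase of the H/ACA snoRNPs, at 11.02 and 10.61 against 9.53 and 9.62 (-1.24, SE 0.253, adjusted p = 0.0651). Rrp9, a protein of the U3 snoRNP, differed by -1.04, with a larger SE of 0.423. The methyltransferase fibrillarin (Fbl) differed by -0.46 and nucleolin (Ncl) by -0.37. Of the enzymes, Cad was called, at 8.86 and 8.28 against 7.79 and 7.57 (-0.89, SE 0.142, adjusted p = 0.0383); without cross-matching probe sets it differed by -0.49 and was not called. Srm, at 10.47 and 9.89 against 8.76 and 8.33, had the second largest difference of all 37, -1.64, but with an SE of 0.308 it just missed the threshold (adjusted p = 0.056). Odc1 differed by only -0.30.

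**Figure D3:**
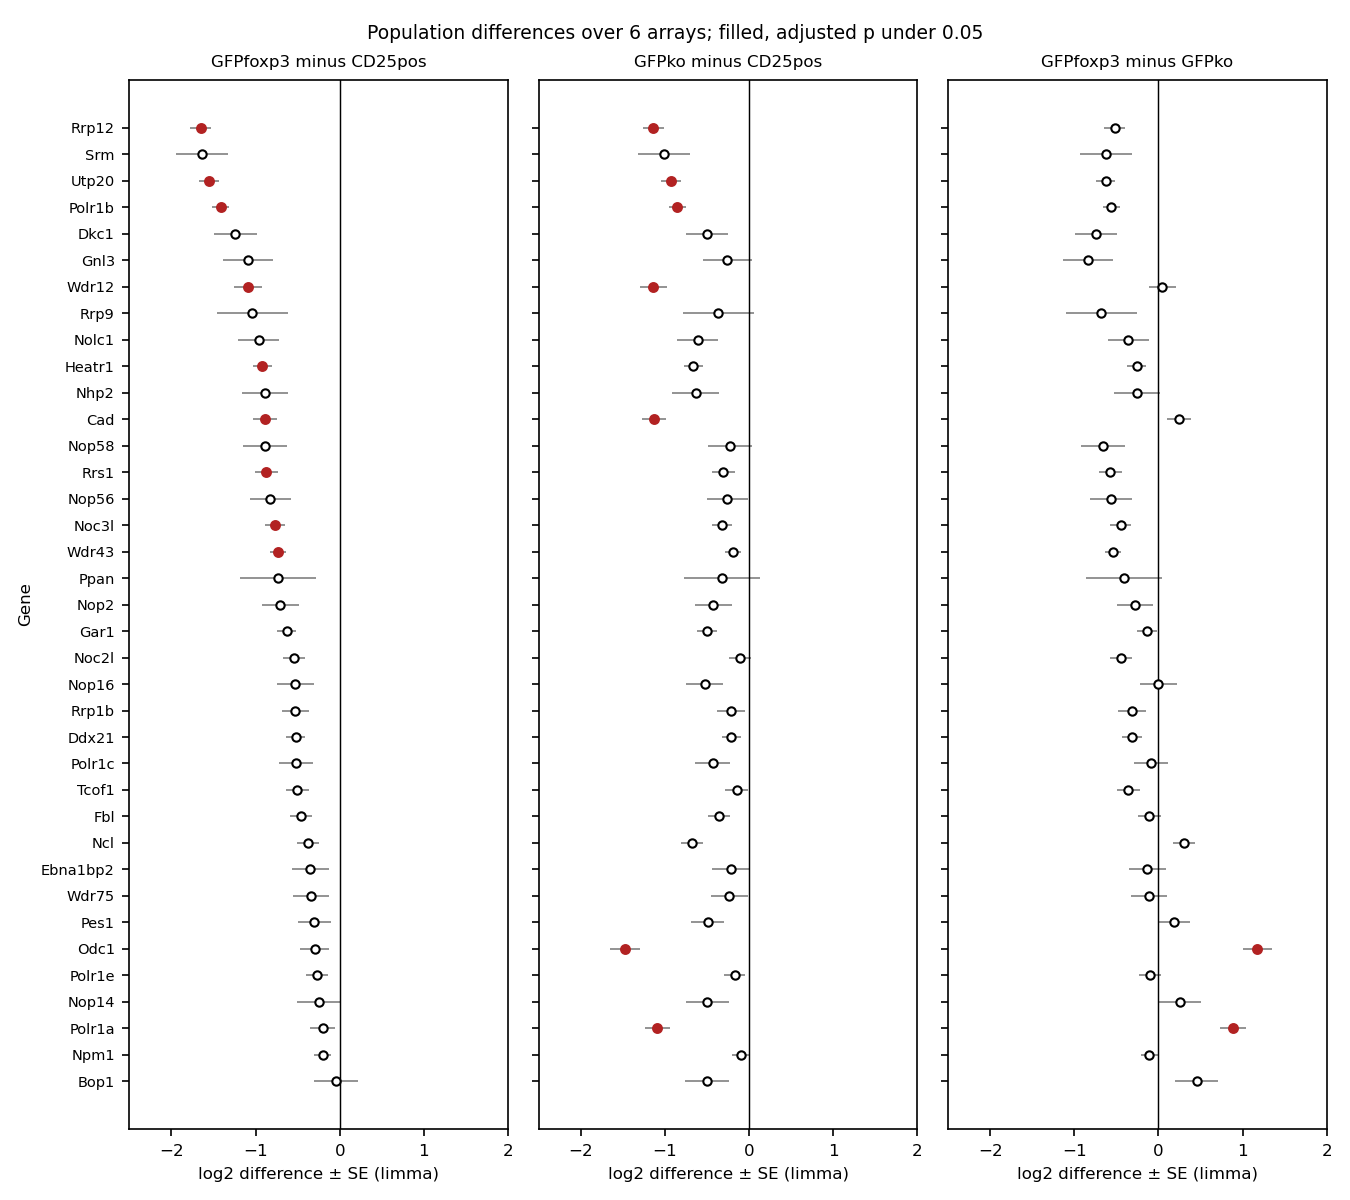
Fitted log2 difference of each of the 37 genes (y axis, same order in each panel) with its SE (limma, 6 arrays) for GFPfoxp3 minus CD25pos, GFPko minus CD25pos and GFPfoxp3 minus GFPko; filled points have an adjusted p under 0.05. Filled points number 9, 7 and 2, all to the left of 0 in the first 2 panels and to the right in the third.

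GFPko against CD25pos sets cells with an active but mutant Foxp3 locus beside the same CD25+ cells. By limma, 7 genes were called lower and 0 higher, where 2.24% and 1.25% of all genes were called. The comparison shares its CD25pos arrays with the previous one. In both settings, 28 of the 37 were lower (75.7%, against 33.2% of all genes), and the median was -0.43. The 2 settings differed: the median was -0.80 without IL-2 and -0.13 with it.

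Odc1 had the largest difference: at 11.44 and, with IL-2, 11.14 in CD25pos, it was at 9.715 and 9.92 in GFPko (-1.47, SE 0.175, adjusted p = 0.0374). Its 2 other probe sets gave -1.55 and -1.04. Cad, at 8.86 and 8.28 against 7.75 and 7.14, differed by -1.13 (adjusted p = 0.0395). Polr1a, at 7.36 and 7.17 against 6.04 and 6.305, differed by -1.09 (SE 0.152, adjusted p = 0.0476), and Polr1b by -0.85 (adjusted p = 0.0374). The next brightest Polr1a probe set gave -0.61 as the mean of the 2 settings. With IL-2 it changed by -1.17 in GFPko and by 1.02 in CD25pos, so by it GFPko was lower only with IL-2. Rrp12 (-1.14, adjusted p = 0.0323), Wdr12 (-1.14, adjusted p = 0.0498) and Utp20 (-0.93, adjusted p = 0.0395) were the other calls. Srm, at 8.90 and 9.44, differed by -1.01 but by -1.57 without IL-2 and -0.46 with it, and was not called (adjusted p = 0.18). The 7 calls became 2 under quantile normalization, 0 with no filter on dim genes, 3 without cross-matching probe sets, and 0 when GFPfoxp3 was left out of the fit. Except in the last setting, where no gene at all was called, the share of all genes called is not given here.

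GFPfoxp3 against GFPko asks what the Foxp3 protein adds in cells with an active Foxp3 locus. Odc1 and Polr1a were called higher in GFPfoxp3 and 0 genes lower, where 5.44% and 2.03% of all genes were called, so the share of members called (2 of 37) was near the background. Odc1 stood at 10.87 and 11.11 in GFPfoxp3 and 9.715 and 9.92 in GFPko, a difference of 1.18 (SE 0.175, adjusted p = 0.0377), or 2.26-fold. All 3 of its probe sets were higher. Polr1a, at 7.11 and 7.001 against 6.04 and 6.305, differed by 0.89 (SE 0.152, adjusted p = 0.0492); its next brightest probe set, which lay at least 2-fold above the array median on 8 of the 10 arrays, gave 0.10. Over all 37 genes the median was -0.28, against 0.01 over all genes kept. Of the 37, 20 were lower in both pairs (54.1%, against 34.8% of all genes) and 7 higher in both, Odc1 and Polr1a among them (18.9%, against 35.0%). The largest lower differences, none of them called, were Gnl3 (-0.84, adjusted p = 0.179), Dkc1 (-0.74, adjusted p = 0.17) and Rrp9 (-0.68, adjusted p = 0.4). After centring of the arrays on the median of the genes kept, 2 were called higher and 8 lower. Under quantile normalization and without cross-matching probe sets 1 was called higher and 1 lower, with the mean of all probe sets 1 higher and 2 lower (Polr1a then at 0.19, adjusted p = 0.42), and with no filter on dim genes 0. The share of all genes called under these settings is not given here, so it cannot be told whether the counts are particular to the members.

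The order of the arrays differed between genes. For Odc1 both GFPko arrays and CD25neg (9.69 to 9.92) lay below both GFPfoxp3 arrays (10.87 and 11.11), which lay below both CD25pos arrays (11.14 and 11.44), though GFPfoxp3 and CD25pos with IL-2 differed by only 0.02. For Utp20, both GFPfoxp3 arrays (7.93 and 8.40) lay below both GFPko arrays (8.65 and 8.93), CD25neg (9.01) and CD25pos (9.62 and 9.82). Rrp12 had the same order, with 4.99 and 5.18 in GFPfoxp3, 5.535 and 5.67 in GFPko, 6.28 in CD25neg and 6.695 and 6.79 in CD25pos.

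Other genes of the pathway, from lists that leave out the 37 members, were read from the same fits. In GFPfoxp3 minus CD25pos, 3.45% of all genes were called lower and 5.28% higher. For GFPfoxp3 minus CD25pos, 6 of 40 other genes of 40S assembly were called lower and 0 higher (median -0.45), led by the GTPase-like factor Tsr1 (-1.01) and the RNA acetyltransferase Nat10 (-0.85). Of 39 other genes of 60S assembly, 5 were called lower and 0 higher (median -0.46), led by Rrp15 (-1.43), Sdad1 (-1.01) and the large ATPase Mdn1 (-0.99). Of 10 snoRNP assembly genes, 9 were lower in both pairs (median -0.39) and 2 were called lower, Nop10 (-0.92) and Shq1 (-0.63). Of 15 polymerase I genes, only Taf1b was called, and it was higher (0.83). The 34 measured genes of cytosolic ribosomal proteins had 0 calls and a median of -0.04.

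In nucleotide synthesis 4 of 14 genes were called lower (12 were lower in both pairs), among them Pfas (-1.09) of the purine pathway and Ctps (-1.07) and Umps (-0.89) of the pyrimidine pathway, and Ctps2 was called higher (1.05). Of 8 polyamine genes, Sat1 (0.94), which acetylates spermidine and spermine for breakdown and export, and Oaz2 (0.93), an antizyme that restrains ornithine decarboxylase, were called higher and 0 lower. Of 10 genes of the Myc network 2 were called higher (6 were higher in both pairs), and both encode Max partners that oppose Myc. Mxd1 was at 6.98 and 7.45 in CD25pos against 9.38 and 9.68 in GFPfoxp3 (2.31, adjusted p = 0.00517), and Mxi1 at 6.00 and 6.25 against 7.29 and 7.31 (1.17, adjusted p = 0.0135). Myc itself, at 8.40 and 8.61 against 8.755 and 9.61, was not called. Of 20 cell cycle genes 0 were called in this comparison, and the median was 0.33.

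For GFPko minus CD25pos, 2.24% of all genes were called lower and 1.25% higher. Called lower were Nol10 of 40 genes of 40S assembly, Rrp15 of 39 of 60S assembly, Shq1 of 10 of snoRNP assembly and Pfas of 14 of nucleotide synthesis. Mxd1 (1.60), of 10 genes of the Myc network, was called higher. Of 20 cell cycle genes, 8 were called lower and 0 higher. For GFPfoxp3 minus GFPko, 5.44% of all genes were called higher and 2.03% lower. Called higher were Mxi1 (1.08) and Mxd1 (0.71) of 10 genes of the Myc network, and Oaz2 (0.97) and Sat1 (0.61) of 8 polyamine genes. So were Taf1b (1.03) of 15 polymerase I genes, Ctps2 (0.99) of 14 of nucleotide synthesis and Nol10 (0.89) of 40 of 40S assembly. Tsr1 (-0.76), also of 40S assembly, and Ddx18 (-0.71), of 39 of 60S assembly, were called lower. Of 20 cell cycle genes, 12 were called higher, with a median of 1.34.

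IL-2 treatment gave 0 calls among the 37 genes in the limma fit over the 3 populations, where 0.235% of all genes were called higher and 0% lower. For 6 members (16.2%) the fit gave an unadjusted p under 0.05, all lower, against 10.6% of all genes, and the fit with an intensity trend and robust variance also called 0. Cad had the largest fitted difference, -0.47 (SE 0.116, adjusted p = 0.36), followed by Heatr1, -0.40 (SE 0.0919, adjusted p = 0.333). The chosen Cad probe set changed by -0.59 in CD25pos, -0.61 in GFPko and -0.22 in GFPfoxp3. Its other well-measured probe set changed by -0.57, 0.56 and -0.17, so the sign in GFPko depended on the probe set. The median over the 37 genes was -0.06. The same term called 5 of 20 cell cycle genes higher, with a median of 1.70. Myc went from 8.40 to 8.61 in CD25pos, from 8.50 to 10.60 in GFPko and from 8.755 to 9.61 in GFPfoxp3, and was not called (adjusted p = 0.476). The Actb 3′ to 5′ probe set difference, a sign of RNA integrity and amplification, was 2.70 to 2.86 on the IL-2 arrays and 3.07 to 3.80 on the untreated ones of these populations; its part was not tested.

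Read within each population, without a test, the members went different ways. In CD25pos, 36 of 37 genes were lower with IL-2 (97.3%, against 52.5% of all genes; median -0.28), and in GFPfoxp3 30 of 37 (81.1%, against 50.0%; median -0.11). In GFPko, 27 of 37 were higher (73.0%, against 48.6%; median 0.27). On the same 2 GFPko arrays the summed level of 5 measured myeloid markers went from 5.10 to 6.36, with Lyz2 at 3.36 and 5.705 and S100a8 at 2.69 and 3.47, and that of the CD8 and NK markers from 6.04 to 6.60, with Klrd1 at 3.04 and 4.57. Il2ra was at 9.58 and 11.28. Their part was not tested. A group of 20 genes (54.1%, against 11.5% of all genes) was higher with IL-2 in GFPko and lower in both other populations, among them Srm, which went from 8.90 to 9.44 in GFPko, from 10.47 to 9.89 in CD25pos and from 8.76 to 8.33 in GFPfoxp3. In CD25pos 0 members were 2-fold from the untreated level (0.997% of all genes were 2-fold higher and 0.352% lower), and in GFPfoxp3 0 as well (1.73% and 0.218%). In GFPko Rrp9 alone was 2-fold higher, at 5.99 without and 7.045 with IL-2 (2.92% of all genes were 2-fold higher there, and 2% 2-fold lower). In GFPko the other probe sets of the genes had the sign of the chosen one in only 11 of 24 cases, against 20 in CD25pos and 18 in GFPfoxp3.

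**Figure D4:**
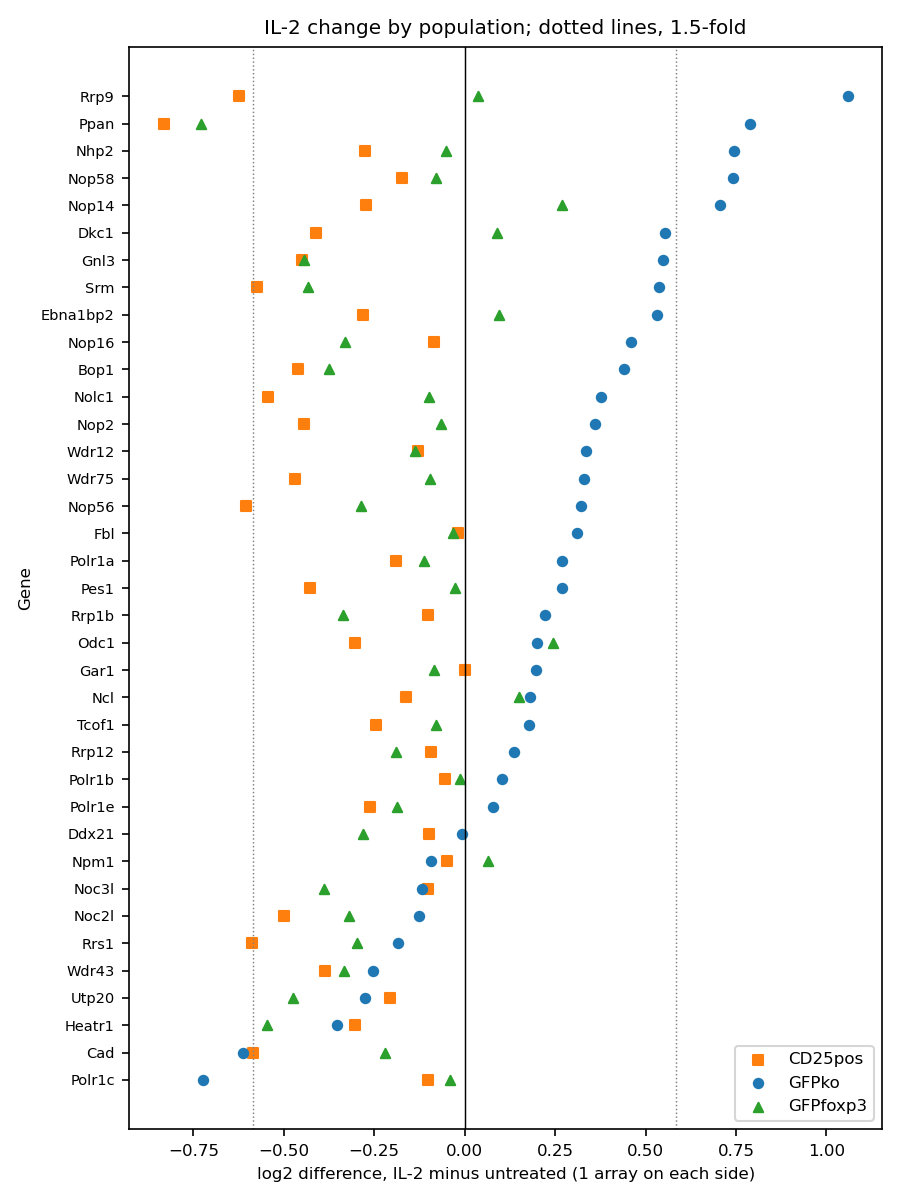
Log2 difference, IL-2 minus untreated (x axis), for each of the 37 genes (y axis) in CD25pos (squares), GFPko (circles) and GFPfoxp3 (triangles), 1 array on each side; dotted lines mark 1.5-fold. For 27 genes the circle lies right of 0, whereas 36 squares and 30 triangles lie left of it.

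Over the 3 populations, 9 members were lower with IL-2 in each (24.3%, against 18.2% of all genes). Utp20 was one (-0.21 in CD25pos, -0.28 in GFPko, -0.47 in GFPfoxp3), as were Heatr1 (-0.30, -0.35 and -0.55) and Wdr43 (-0.39, -0.25 and -0.33). A dimmer Heatr1 probe set changed by 0.08, 0.36 and -0.61. In GFPko the other well-measured probe sets of Polr1c, Rrs1, Noc2l, Noc3l and Cad, also among the 9, were higher with IL-2. They changed by 0.55, 0.29, 0.77, 0.13 and 0.56 there, while those of Ddx21 and Wdr43 were lower. The C/D and H/ACA core proteins were not of one direction: Nop58 changed by -0.17, 0.74 and -0.08 in that order, Nhp2 by -0.28, 0.74 and -0.05, and Dkc1 by -0.41, 0.55 and 0.09. For Dkc1 this held for the chosen probe set only. Its 2 other probe sets were lower in each population, by -0.36, -0.12 and -0.06 and by -0.83, -0.31 and -0.11. Ppan, a 60S factor, changed by -0.83, 0.79 and -0.73.

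The transduced cells had lower levels of most members than any sorted population. All 3 arrays lay below all 7 sorted arrays for 23 of the 37 genes, against 25.2% of all genes, and above them for 0, against 17.5%. Wdr12, for example, was at 5.62 in empty-vector cells, 4.98 in PDE3B cells and 5.02 in cells with the mutant, and at 7.47 to 8.84 on the sorted arrays. The median member was at 8.00, 7.24 and 7.76 on these arrays and at 8.40 to 9.625 on the sorted ones. Odc1 was not among the 23, at 11.46, 10.81 and 11.60. Culture, transduction, transfer and the separate experiment cannot be told apart here, and the 3′ and 5′ probe sets of Actb were 5.87 to 6.38 apart on these arrays against 2.70 to 3.80 on the sorted ones; its part was not tested.

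The vectors were compared with one another within that experiment, to ask what PDE3B and its H801A mutant do in regulatory T cells. With PDE3B, 29 of 37 genes were lower than with the empty vector (78.4%, against 59.5% of all genes), with a median of -0.35 against -0.05. Of these, 3 were at least 2-fold lower (4.25% of all genes) and 0 2-fold higher (1.2%). Rrp9 was at 5.19 with the empty vector and 2.82 with PDE3B, under that array's median of 3.22, so it was at least 3.91-fold lower. Srm was at 7.25 and 6.01, and Ppan at 7.60 and 6.49. Utp20, Nolc1 and Tcof1, a nucleolar factor of precursor transcription, came next and stayed within 2-fold, at 8.00 and 7.01, 8.05 and 7.06, and 7.64 and 6.68.

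With the H801A mutant, 0 genes were 2-fold from the empty vector, against 0.93% of all genes higher and 1.37% lower, and the median was -0.10. Between the 2 PDE3B vectors, PDE3B was 2-fold lower for Rrp9 (2.82 against 4.60, at least 2.60-fold), Polr1b (3.47 against 4.77) and Noc2l (7.23 against 8.28), against 2.3% of all genes, and 2-fold higher for 0, against 0.737%. Noc2l, a partner of the 60S factor Noc3l, was also higher with the mutant than with the empty vector (7.87). The 3 comparisons share arrays, and for PDE3B minus the empty vector only 12 of the 24 other well-measured probe sets had the sign of the chosen one. The array with PDE3B also had the largest Actb 3′ to 5′ difference (6.38, against 5.87 and 5.95) and the lowest median over the genes kept (6.43, against 6.65 and 6.55). Between the empty vector and PDE3B, Cd4 was at 9.29 and 8.05, 18 of 20 cell cycle genes were lower, 5 of them at least 2-fold (median -0.60), and the summed level of the myeloid markers was 5.87 and 5.25, with Csf1r at 4.34 and 2.48. Of the plasma cell markers, whose summed level was 11.56 and 11.32, Mzb1 was at 3.92 and 2.17. Their part was not tested.

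**Figure D5:**
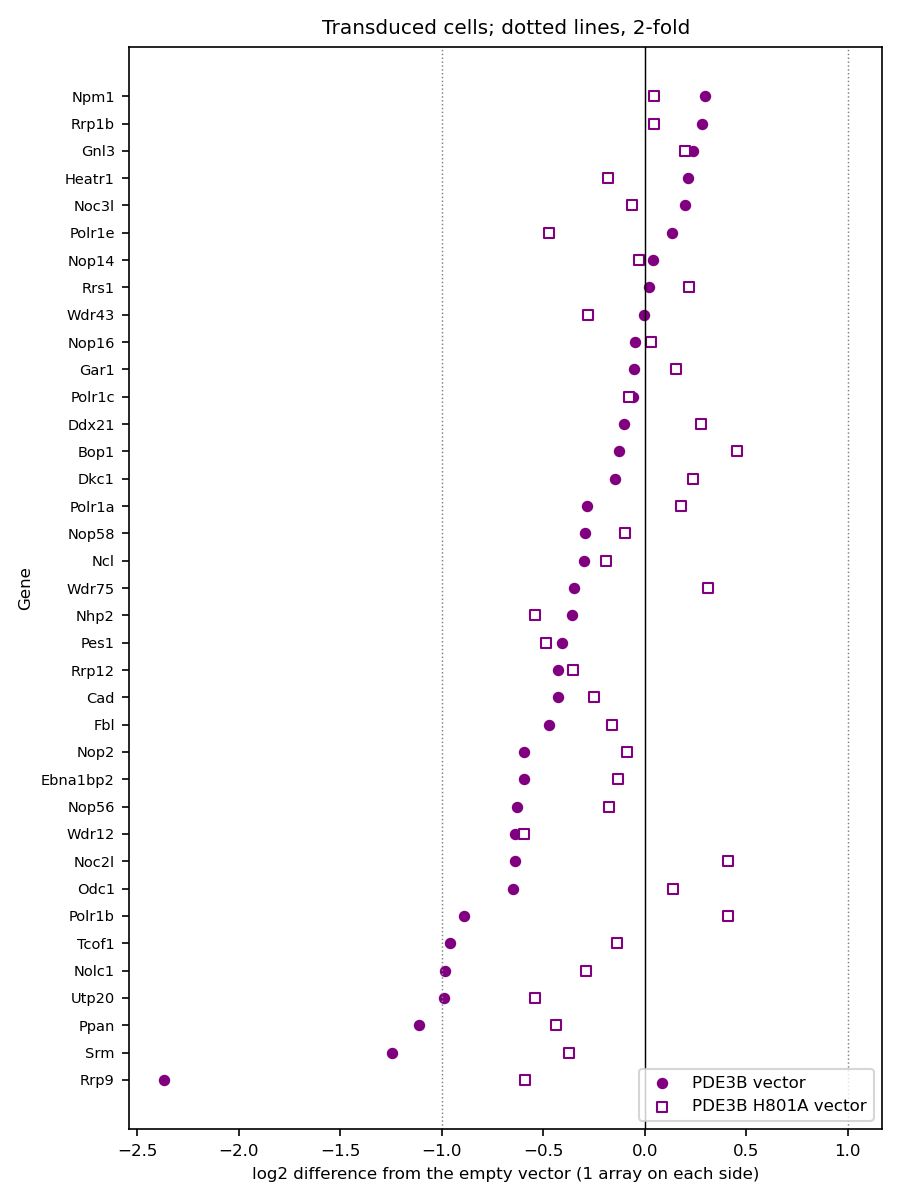
Log2 difference from the empty vector (x axis) for each of the 37 genes (y axis) with PDE3B (filled circles) and with its H801A mutant (open squares), 1 array on each side; dotted lines mark 2-fold. The circles of Rrp9, Srm and Ppan lie beyond the left line, and 29 circles lie left of 0.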

How the data were processed

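RNA of 10 groups, 1 array each, was amplified in 2 rounds and hybridised to Affymetrix mouse 430 2.0 arrays, per the labels' protocols. The deposited log2 values of 45101 probe sets were normalized together by the authors, per the series' design text; their software: not given in the sources used here. The values were used as deposited; no depth exists for arrays, and 1 array per group limits the precision. Probe sets were named from the platform annotation where it gave 1 gene (932 with several and the control probe sets were left out) and matched by Entrez ID to GRCm38.p6. A gene was kept if at least 1 array reached its median.

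R 4.3.3 with limma 3.58.1 fitted population and IL-2 to 6 arrays, with 2 residual degrees of freedom, the default eBayes and Benjamini-Hochberg adjustment over 11938 genes. The 9 pairs of single arrays were counted at 2-fold. A fold against a value under the array median is a lower bound at that median. All members could be named: those called or 2-fold apart, and the largest not called per role; of the other lists, up to 4 called genes. The members and lists were chosen with earlier results of these data known. The script was tested on simulated data for GFPfoxp3 minus GFPko. The fit called 11 of 100 genes changed by 1 on the log2 scale and 78 of 100 changed by 2, with 7 false calls. A gene not called may therefore still differ. Alternatives were quantile normalization, centring, 2 filters, 2 choices of probe set, another variance model, all 10 arrays, leaving out a population, and folds of 1.5 and 3.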

Additional observations from a re-analysis of the deposited data

Results flagged for a closer look

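Rrp9 and Ppan moved at least 1.5-fold with IL-2 in opposite directions in different populations; the difference between populations was not tested, since each value sets 1 array against 1. Rrp9 changed by 1.06 on the log2 scale in GFPko and by -0.62 in CD25pos. Ppan changed by 0.79 in GFPko, -0.83 in CD25pos and -0.73 in GFPfoxp3.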

How the results depend on the processing

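No paired analysis was possible because each group has 1 array and the labels give no replicate numbers. For GFPfoxp3 minus CD25pos the 9 calls became 16 with centring and 5 with no filter. For GFPko minus CD25pos the 7 calls became 2 with quantile normalization, 0 with no filter, 3 without cross-matching probe sets and 0 without GFPfoxp3, where no gene at all was called. For GFPfoxp3 minus GFPko the 2 calls became 10 with centring (2 higher, 8 lower), 0 with no filter, 1 with an intensity trend and robust variance, and 1 without CD25pos; quantile normalization (1 higher, 1 lower), the mean of all probe sets (1 higher, 2 lower) and leaving out cross-matching probe sets (1 higher, 1 lower) each shared 1 of the 2 calls. IL-2 called 0 in every setting run. At 1.5-fold and 3-fold, the counts were 25 (all higher, against 12.4% of all genes) and 2 for CD25pos minus CD25neg, 10 (1 higher, 9 lower) and 0 for GFPfoxp3 minus CD25neg, 5 (all lower) and 0 for GFPko minus CD25neg, 7 (5 higher, 2 lower, against 10.7% and 6.78% of all genes) and 0 for IL-2 in GFPko, 13 (all lower, against 13.6%) and 1 for PDE3B minus empty, and 10 (1 higher, 9 lower, against 3.74% and 8.96%) and 1 for PDE3B minus H801A; at 1.5-fold they were 5 for IL-2 in CD25pos, 1 for IL-2 in GFPfoxp3 and 2 for H801A minus empty, all lower (against 2.75%, 1.56% and 6.32%). Without cross-matching probe sets the counts were 3 for CD25pos minus CD25neg, 1 for GFPfoxp3 minus CD25neg and 5 for PDE3B minus H801A. The mean of all probe sets gave 1 for GFPfoxp3 minus CD25neg and 1 for GFPko minus CD25neg, and centring gave 0 for IL-2 in GFPko. Medians reversed sign for IL-2 without CD25pos (0.0507) and for GFPko minus CD25neg with centring (0.0492). Of the values of single genes under these settings, 199 kept their side of the threshold and 53 lost it, none changing direction. Where no share of all genes stands beside a count here or above, the count describes the members alone. The cause of these changes was not tested.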

Other observations

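Mycn, a relative of Myc, was read by 3 probe sets. One was at 3.14 to 3.41 on the 7 sorted-cell arrays and at 10.90 (empty vector), 9.845 (PDE3B) and 10.27 (the mutant) in transduced cells; the other 2 probe sets lay at 2.66 to 2.78 and 3.495 to 3.93 on all 10 arrays. The gene was singled out after its values were seen.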
